A study of Mus musculus with 6 samples.

Results

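The mouse expression array carried 305 probe sets, of 35556 in all, whose single gene symbol named a microRNA (miRNA) locus. They were chosen by name alone: the annotation had to give exactly 1 symbol, starting with Mir and a digit or with Mirlet. They covered 300 loci of the 19938 genes named. A further 61 probe sets listed an miRNA symbol beside other symbols and were left out by that rule. Loci on the same strand with neighbours within 10 kb were treated as 1 primary transcript, which gave 195 units, 48 of them with more than 1 locus (153 loci). All dim probe sets were kept. The mean log2 value of 178 of the 305 (58.4%) lay below the 25th percentile of genes (a log2 value of 7.35), and the median over members was 6.94 against 8.52 over genes.

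RNA came from pre-B cells of C57BL/6 mice transformed with BCR-ABL1, the fused tyrosine kinase that drives Philadelphia-positive (Ph+) lymphoblastic leukaemia. Every sample carried floxed alleles of Inpp5d, which encodes the lipid phosphatase SHIP1. Cells on 3 arrays (ERT2 control) had been transduced with the PMIP-ERT2 vector, which carries the tamoxifen-binding domain alone, and cells on the 3 Cre-labelled arrays (Cre-ERT2) with the vector that adds Cre recombinase. Both groups were given 4-hydroxytamoxifen at 0.5 µM, and RNA was extracted from puromycin-resistant cells after 2 days. There was no arm with Cre in cells without floxed alleles, so Cre activity and loss of Inpp5d cannot be told apart. No label tells whether a group's arrays stem from separate cultures. The p-values therefore cover only how these samples vary, and that variation may be technical.

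An miRNA gene is transcribed as a long primary transcript, from which Drosha cuts a hairpin in the nucleus and Dicer cuts the mature strand in the cytoplasm. The mature strand guides an Argonaute protein to mRNAs that pair with its seed. The miR-17-92 cluster is activated by MYC, supports the survival of pre-B cells and is an oncogene in B lymphoma, and miR-155, which is induced in activated B cells, is a textbook repressor of Inpp5d mRNA. The arrays read total RNA labelled from a column kit, and such columns keep little RNA as short as a mature miRNA. Whether a probe set read the primary transcript, the hairpin or the mature strand was not tested.

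The mature strands of the 5 measured miR-17-92 hairpins are shown first, since the lowest differences among the miRNA loci fell in this cluster. Its miR-92a hairpin, which the cluster's name includes, was not among the loci measured here. The first and last of the 5 strands lie at chr14:115043684-115043706 and chr14:115044358-115044380 on the plus strand of GRCm38.p6, inside the non-coding host transcript Mir17hg. Sequences and positions are from the RefSeq table of that build, and the sources used here do not give the build of the array annotation. Capitals mark the seed, bases 2 to 8 from the 5′ end.
miR-17-5p: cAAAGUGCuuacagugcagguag
miR-18a-5p: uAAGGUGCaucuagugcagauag
miR-19a-3p: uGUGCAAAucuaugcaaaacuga
miR-20a-5p: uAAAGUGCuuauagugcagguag
miR-19b-3p: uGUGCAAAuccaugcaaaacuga

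Related clusters on chromosome X (miR-106a-363) and in the gene Mcm7 on chromosome 5 (miR-106b-25) carry mature strands with the miR-17 seed. Of these clusters, only that on chromosome X also has the miR-19 seed, in Mir19b-2. Both also carry the seed AUUGCAC. None of the 5 strands above has that seed, but those 5 leave out the unmeasured hairpin named above. The related clusters are shown for comparison because the array measured them on separate probe sets.
miR-106a-5p: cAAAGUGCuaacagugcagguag
miR-20b-5p: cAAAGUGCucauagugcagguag
miR-106b-5p: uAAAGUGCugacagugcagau
miR-93-5p: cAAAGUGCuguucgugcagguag
miR-92a-3p: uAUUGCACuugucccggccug
miR-363-3p: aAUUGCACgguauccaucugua
miR-25-3p: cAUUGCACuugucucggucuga
The seed AAAGUGC was shared by Mir17, Mir20a, Mir106a, Mir20b, Mir106b and Mir93. The seed GUGCAAA was shared by Mir19a, Mir19b-1 and Mir19b-2, and the mature strands of the last pair were identical in RefSeq. Of the 300 loci, 270 had a mature sequence in the table. Where loci are near-identical, as Mir19b-1 and Mir19b-2 are, a probe could read both.

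The targeted gene goes first, as a check of the labels. Inpp5d had log2 values of 13.20, 13.21 and 13.17 in the controls and of 13.37, 13.34 and 13.34 in the Cre-labelled arrays. It was therefore not lower in the latter (difference 0.16 ± 0.043, SE, limma adjusted p = 0.187 over all probe sets). The sources used here do not say whether its 1 probe set lies in the deleted exons, so groups are named by their labels throughout. Arrays correlated over the miRNA probe sets with Pearson's r from 0.987 to 0.997. Cre-labelled array 3 lay nearest the control mean, of the 3 in its group, in 172 of 305 miRNA probe sets (56.4%) and in 54.7% of single-symbol probe sets. The 9 pre-B cell markers measured were bright (mean log2 values of 10.2 to 14.3), with a median difference of -0.0021. Of 9 myeloid markers, 7 had a positive difference, and their summed log2 values ranged from 68.1 to 68.9 in the controls and from 69.8 to 70.7 in the Cre-labelled arrays. Lyz2, the lysozyme of myeloid cells, had the largest of these differences (0.79 ± 0.11, SE, limma adjusted p = 0.0903 over all probe sets and 0.0153 over single-symbol probe sets). Its values are part of the sums above. The myeloid marker Fcgr1 was lower without overlap (-0.26 ± 0.078, SE, limma adjusted p = 0.195 over all probe sets), and Elane had a difference of -0.0005. Positive differences were also measured in 7 of 8 T and NK cell markers, 6 of 6 erythroid and megakaryocyte markers and 9 of 9 stromal markers. Of all single-symbol probe sets, 61.5% had a positive difference, and of those below the 25th percentile of genes 78.3%. Below that level lay 4 myeloid, 5 T and NK cell, 2 erythroid and megakaryocyte and 1 stromal of these markers. The part of any of these cell types in the miRNA values was not tested. In bulk RNA, a change in the number of cells of a type and a change in RNA per cell cannot be told apart.

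No miRNA probe set passed the test over the whole table. limma with Benjamini-Hochberg adjustment over all 35556 probe sets called 0 of 305 miRNA probe sets and 0 of 195 units, beside 20 probe sets in all (0.0562% of the table). At an unadjusted p under 0.05 there were 65 miRNA probe sets (21.3%) against 19.8% of all probe sets. Of these, 55 were higher with Cre (18.0%, against 12.5% of all probe sets) and 10 lower (3.28%, against 7.26%). The table counts 12146 probe sets that the annotation does not name. Adjustment over the 21789 single-symbol probe sets called 5 miRNA probe sets (1.64%) against 1.72% of that table: Mir342 higher, and Mir17hg, Mir17, Mir18 and Mir19a lower. Of the single-symbol probe sets, 0.734% were called higher and 0.987% lower, against 0.328% and 1.31% of the miRNA probe sets. By unit the calls were 2, Mir342 and miR-17-92.

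A fit over 1 probe set a gene above the 25th percentile, added after the values were seen, called 10 of 127 miRNA probe sets (7.87%) against 7.62% of its 14953 genes. The 4 higher were Mir342, Mir345, Mirlet7e and Mir128-2, and the 6 lower were the miR-17-92 probe sets, where 3.5% of genes were called higher and 4.13% lower. In each of the 3 tables the miRNA share was close to that of the table, so the counts set miRNA loci apart in none of them. The calls also changed with 1 array left out, where the groups are smaller. In these fits the difference of the miR-17-92 unit ranged from -0.48 to -0.62 and that of Mir342 from 0.53 to 0.66. Over single-symbol probe sets, 0 miRNA probe sets were called without any 1 of the control arrays 1, 2 and 3 or the Cre-labelled array 1. The share of the table called is given here only for the fit without Cre-labelled array 3. The counts of the other fits therefore show nothing particular to miRNA loci. Without Cre-labelled array 2 only Mir19a was called, and without Cre-labelled array 3 there were 34 (11.1%) against 6.91% of that table: 30 higher (9.84%, against 3.86%) and 4 lower (1.31%, against 3.05%).

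Differences of most miRNA loci were small and positive. The median over the 305 probe sets was 0.11 on the log2 scale, with 237 higher and 68 lower (77.7% higher), against a median of 0.046 and 62.2% higher over all probe sets. The 127 brighter miRNA probe sets had a median difference of 0.15 and the 178 dim ones of 0.059, whereas single-symbol probe sets had 0.023 above and 0.081 below the same level. The size depended on the scaling of the arrays: the miRNA median was 0.041 after quantile normalization (62.3% higher), 0.040 after cyclic loess (63.9% higher) and 0.0033 after each array was centred on its median (153 higher, 152 lower). Centring moved the median of all probe sets from 0.046 to -0.056. The median miRNA log2 value was 6.87, 6.90 and 6.89 in control arrays 1, 2 and 3, and 7.13, 7.03 and 6.93 in the Cre-labelled arrays 1, 2 and 3. The groups did not overlap, and Cre-labelled array 3 lay closest to the controls.

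**Figure D1:**
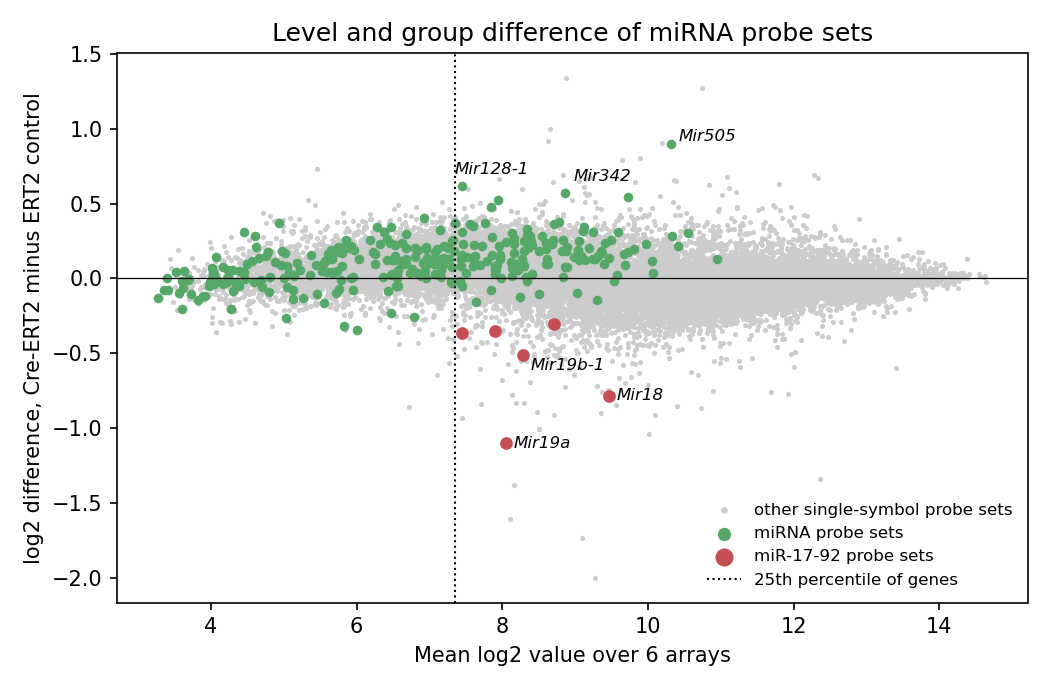
Each point is 1 single-symbol probe set, with its mean log2 value over 6 arrays on the x axis and the log2 difference, Cre-ERT2 minus ERT2 control, on the y axis. The 6 miR-17-92 probe sets (red) lie between -1.10 and -0.30, below every other miRNA probe set (green) brighter than the 25th percentile of genes (dotted line), most of which lie a little above 0.

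The miR-17-92 cluster held the lowest miRNA differences. Mir19a, the miR-19 hairpin that carries much of the cluster's oncogenic activity in B cells, had log2 values of 8.83, 8.42 and 8.55 in the controls and of 7.66, 7.18 and 7.66 in the Cre-labelled arrays. All 3 of the latter lay below all 3 controls, by 1.10 ± 0.17 (SE) on the log2 scale, or 2.15-fold (limma adjusted p = 0.105 over all probe sets and 0.0179 over single-symbol probe sets). The second value ranged from 0.0252 to 0.0764 with each array left out in turn. Mir18, whose hairpin gives miR-18a, read 10.07, 9.62 and 9.90 in the controls against 9.04, 8.90 and 9.30, again without overlap. Its difference was -0.78 ± 0.15 (SE), a 1.72-fold lower signal (limma adjusted p = 0.141 and 0.0368 in the same order).

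The other members of the transcript differed less and in the same direction. Mir19b-1 read 8.72, 8.48 and 8.44 in the controls against 8.27, 7.80 and 8.02 (difference -0.51 ± 0.14, SE). Mir20a, of the miR-17 seed, read 7.66, 7.64 and 7.58 against 7.40, 7.04 and 7.36 (difference -0.36 ± 0.10, SE). Mir17 itself read 8.18, 8.02 and 8.03 against 7.82, 7.66 and 7.70 (difference -0.35 ± 0.071, SE). For none of these loci did the groups overlap. The host transcript Mir17hg had the smallest difference of the 6 and the tightest replicates, with 8.90, 8.81 and 8.87 against 8.61, 8.56 and 8.51 (difference -0.30 ± 0.053, SE, limma adjusted p = 0.130 and 0.0397). The differences thus ran from -0.30 to -1.10 within 1 transcript, on probe sets whose log2 response may differ.

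**Figure D2:**
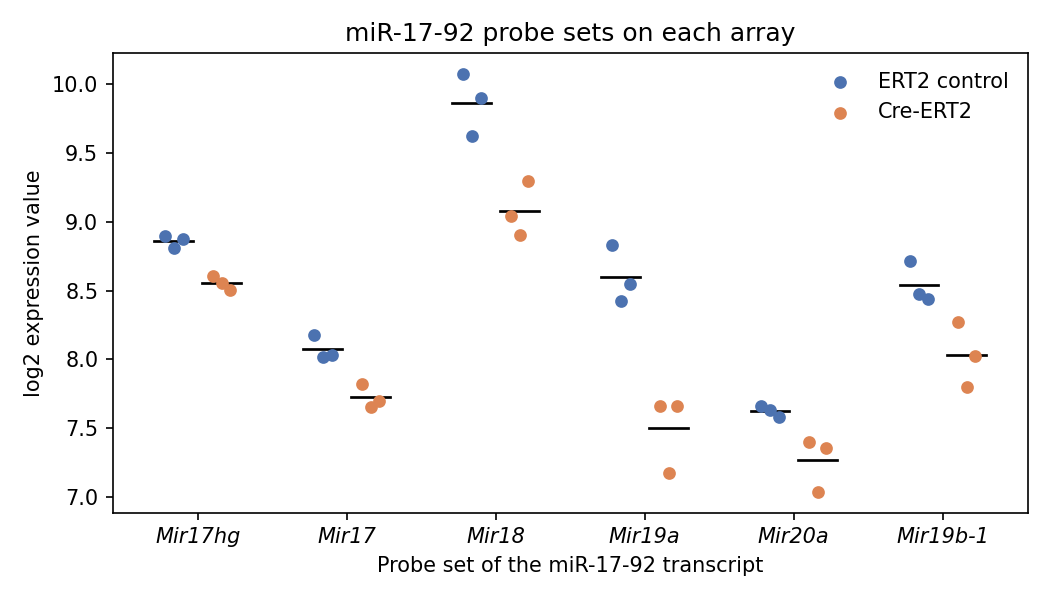
Log2 values of the 6 probe sets of the miR-17-92 transcript on each array, 3 ERT2 control (blue) and 3 labelled Cre-ERT2 (orange), with the group mean as a bar. The groups do not overlap for any of the 6, and the gap is widest for Mir19a (1.10) and narrowest for Mir17hg (0.30).

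As 1 unit, the mean over the 6 probe sets was 8.73, 8.50 and 8.56 in the controls and 8.13, 7.86 and 8.09 in the Cre-labelled arrays, without overlap. The difference was -0.57 ± 0.098 (SE), with a 95% interval from -0.81 to -0.33. limma gave an adjusted p of 0.126 over all probe sets, 0.029 over single-symbol probe sets and 0.0128 over the brighter genes. The second of these ranged from 0.0372 to 0.12 with each array left out in turn. It was under 0.05 only without Cre-labelled array 3, and highest without control array 1. The third ranged from 0.0342 to 0.102. The direction of each of the 6 probe sets was the same under every normalization tried and without each array.

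Of 48 units with more than 1 locus, 27 had all loci higher, 18 were mixed and 3 had all loci lower. The other two of the last kind, Mir15b with Mir16-2 (unit difference -0.25) and Mir463 with Mir471 (-0.0077), were dim. Among units brighter than the 25th percentile, the next lowest difference after miR-17-92 was that of Mir6516 (-0.14). Groups did not overlap in 74 miRNA probe sets (24.3%, against 28.4% of all probe sets): 62 with Cre-ERT2 higher (20.3%, against 17.5%) and 12 lower (3.93%, against 10.9%). The 12 lower were the 6 miR-17-92 probe sets with Mir19b-2, Mir6516, Mir146, Mir190a, Mir384 and Mir547, of which all but Mir6516 and miR-17-92 were dim.

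In the related clusters, differences were nearer 0 or of mixed sign. In the cluster on chromosome X, all 5 loci were below the 25th percentile, with differences of -0.048 for Mir106a, 0.13 for Mir20b, -0.27 for Mir19b-2, -0.0002 for Mir92-2 and -0.32 for Mir363. Only Mir19b-2, whose mature strand is that of Mir19b-1, had groups that did not overlap: it read 5.21, 5.10 and 5.17 in the controls against 4.91, 4.79 and 4.98 (limma adjusted p = 0.171 over all probe sets). In the Mcm7 cluster, all 3 loci were bright. Their differences were 0.0066 ± 0.061 (SE) for Mir106b (-0.077 to -0.096 under the 3 other scalings), 0.19 ± 0.12 for Mir93 and -0.017 ± 0.068 for Mir25, and their groups overlapped. Mcm7 itself, which encodes a subunit of the replicative helicase, differed by -0.044 ± 0.045 (SE).

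Set against each other within an array, the mean of miR-17-92 minus that of miR-106b-25 was -0.056, -0.21 and -0.23 in the controls and -0.77, -0.97 and -0.63 in the Cre-labelled arrays. The groups did not overlap, and the change in this difference was -0.63. Minus the chromosome X cluster the change was -0.47, also without overlap. The exact permutation test, two-sided, gave p = 0.1 for both, which is the smallest that 3 arrays against 3 allow (0.15 after Benjamini-Hochberg adjustment over the 3 pairs of clusters). Between the other two clusters the change was -0.16 (exact permutation p = 0.2). For the seed AAAGUGC, values lay apart by cluster. Mir17 and Mir20a had -0.35 and -0.36, and the other 4 loci lay between -0.048 and 0.19. For GUGCAAA, the loci of both clusters were lower: Mir19a by 1.10, Mir19b-1 by 0.51 and the dim Mir19b-2 on chromosome X by 0.27.

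**Figure D3:**
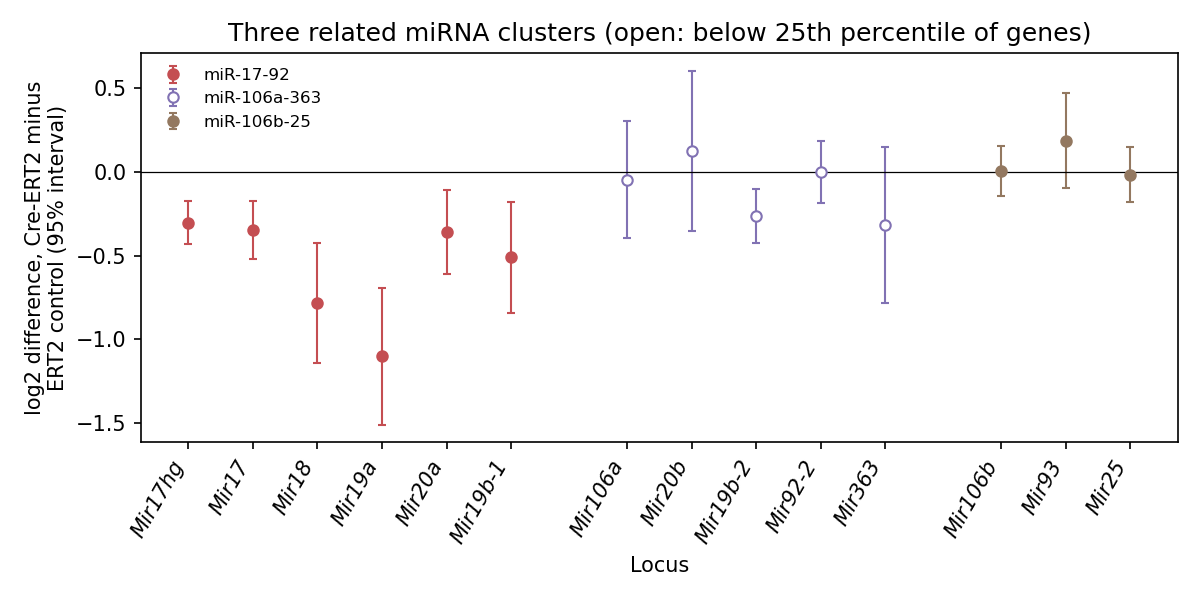
Log2 difference, Cre-ERT2 minus ERT2 control, of each measured locus of the miR-17-92, miR-106a-363 and miR-106b-25 clusters, with limma's unadjusted 95% interval as bars and open circles for loci below the 25th percentile of genes. All 6 intervals of miR-17-92 lie below 0, and of the other 8 loci only that of Mir19b-2 does.

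Higher signals were measured at several loci of B cell interest. Mir342 lies in an intron of Evl, which encodes an actin regulator, and its mature strand, printed because it had the smallest p of the higher loci, is at chr12:108658680-108658702 (plus strand, GRCm38.p6).
miR-342-3p: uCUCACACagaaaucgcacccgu
It read 8.56, 8.49 and 8.66 in the controls and 9.23, 9.24 and 8.97 in the Cre-labelled arrays. The groups did not overlap, and the difference was 0.57 ± 0.091 (SE), or 1.49-fold (limma adjusted p = 0.114 over all probe sets and 0.0219 over single-symbol probe sets). The second value ranged from 0.0157 to 0.113 with each array left out in turn. Evl had a difference of 0.11 ± 0.049 (SE, limma adjusted p = 0.278).

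Mir128-1 and Mir128-2 give the same mature strand from introns of R3hdm1 and Arpp21.
miR-128-3p: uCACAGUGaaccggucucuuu
Mir128-2 read 7.59, 7.46 and 7.69 in the controls and 8.04, 8.03 and 7.79 in the Cre-labelled arrays (difference 0.37 ± 0.094, SE, limma adjusted p = 0.173 over all probe sets). Mir128-1 read 7.24, 6.86 and 7.32 against 8.26, 7.63 and 7.37 (0.62 ± 0.25, SE), a wider spread. The groups overlapped for neither, with Cre-labelled array 3 the lowest of its group for both. The hosts R3hdm1 and Arpp21 had differences of 0.11 and 0.03.

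miR-155 is the textbook repressor of Inpp5d, and its mature strand is shown for that reason.
miR-155-5p: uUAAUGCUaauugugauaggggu
Mir155 read 7.65, 7.37 and 7.81 in the controls and 8.29, 8.16 and 7.81 in the Cre-labelled arrays. The lowest Cre-labelled array and the highest control differed only beyond the second decimal. The difference was 0.48 ± 0.16 (SE, limma adjusted p = 0.214 over all probe sets and 0.103 over single-symbol probe sets), and it passed in none of the 3 tables. Inpp5d, the floxed gene, had a difference of 0.16 in the same arrays (limma adjusted p = 0.187 over all probe sets). Any effect of miR-155 on it was not tested. Of 13 textbook targets of miR-155 measured, Inpp5d among them, 0 were called over all probe sets by limma, and 4 had an unadjusted p under 0.05 (30.8%, against 19.8% of all probe sets). These 4 were the floxed gene Inpp5d itself, Socs1 and Ets1, which were higher, and Rheb, which was lower. Over single-symbol probe sets only Socs1, a cytokine signalling inhibitor, was called (0.30 ± 0.057, SE, limma adjusted p = 0.0446), or 7.69% of the list against 1.72% of that table. Over the brighter genes the list again had 1 call (7.69%, against 7.62%). The median difference of these targets was 0.079.

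The cluster of Mir99b, Mirlet7e and Mir125a in Spaca6, known for expression in early blood progenitors, had differences of 0.12 ± 0.059, 0.26 ± 0.061 and 0.30 ± 0.089 (SE). None of the 3 had overlapping groups. Mirlet7e, of the let-7 family of proliferation inhibitors, read 8.62, 8.46 and 8.62 in the controls against 8.85, 8.83 and 8.80. Mir181a-2 and Mir181b-2, whose mature strands are abundant in developing lymphocytes, had differences of 0.35 ± 0.11 and 0.36 ± 0.11 (SE) without overlap. Mir34a, a p53 target, read 7.77, 7.77 and 7.50 against 8.58, 8.05 and 7.98 (0.52 ± 0.17, SE). Mir345 read 8.94, 8.93 and 9.00 against 9.30, 9.42 and 9.10 (0.32 ± 0.088, SE). limma's adjusted p over all probe sets lay between 0.162 and 0.298 for these 7 loci. Sizes of positive differences depended on the scaling. With each array centred on its median, Mirlet7e had 0.16, Mir345 0.22, Mir128-2 0.27 and Mir342 0.47.

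In all, 44 loci of a list of B lineage and leukaemia miRNAs were analysed here, 19 of them dim, in 30 units. The list left out Mir17hg and its measured hairpins, which were all lower without overlap, so the counts below do not cover them. The median difference of the 44 loci was 0.12, beside 0.11 over all miRNA probe sets, with 35 positive and 9 negative. limma called 0 over all probe sets, where 14 had an unadjusted p under 0.05 (31.8%, against 19.8% of all probe sets). It called 1 over single-symbol probe sets, Mir342 (2.27%, against 1.72% of that table), and 3 of 25 over the brighter genes (12%, against 7.62%). Groups did not overlap in 13 with Cre-ERT2 higher (29.5%, against 17.5% of all probe sets), and in 1 with Cre-ERT2 lower (2.27%, against 10.9%), Mir146 (-0.21 ± 0.068, SE), which was dim. Mir150, a regulator of B cell maturation, read at most 8.09 in the controls against 8.43, 8.33 and 8.05, and its groups overlapped. Mir142, a locus of the whole blood lineage, had the brightest signal of the miRNA probe sets (mean log2 value 10.9, above 80.5% of genes) and a difference of 0.13 ± 0.14 (SE), within the spread.

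**Figure D4:**
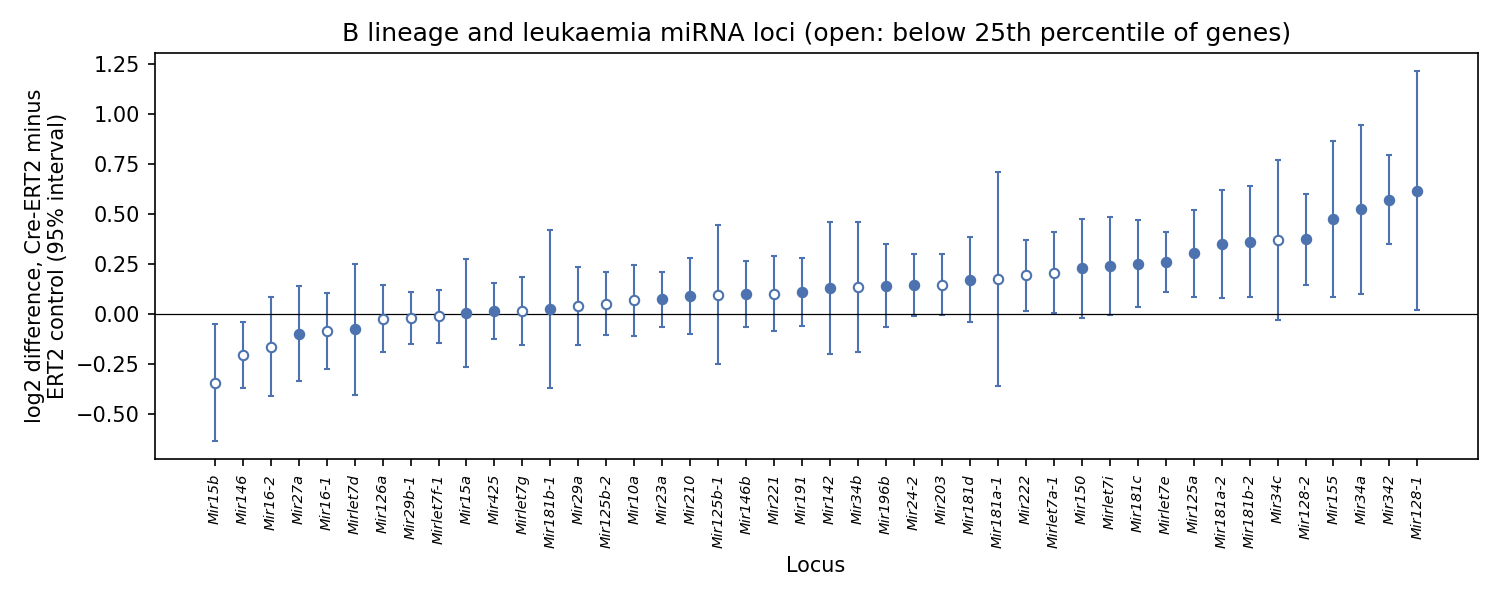
Log2 difference, Cre-ERT2 minus ERT2 control, of the 44 B lineage and leukaemia miRNA loci, ordered by size, with limma's unadjusted 95% interval as bars and open circles for loci below the 25th percentile of genes. Of these loci, 35 lie above 0, and Mir128-1 (0.62), Mir342 (0.57) and Mir34a (0.52) lie highest. Mir17hg and its measured hairpins, all lower, are not on this list.

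The largest positive difference was that of Mir505, on chromosome X. It read 10.09, 9.46 and 10.08 in the controls and 11.49, 10.89 and 9.94 in the Cre-labelled arrays. Cre-labelled array 3 lay inside the control range, and the difference of 0.90 ± 0.40 (SE) missed limma's threshold (adjusted p = 0.277). Mir680-3 read 9.47, 9.25 and 9.63 against 10.12, 10.20 and 9.68 (0.55 ± 0.16, SE), without overlap. The imprinted cluster on chromosome 12 fell into a unit of 7 loci around Mir127 (difference 0.14, all 7 higher) and a unit of 30 loci around Mir134 (0.082, 26 higher and 4 lower), the second of them dim.

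Loci inside host genes differed from their hosts in size. The array measured 74 hosts, in 92 pairs of a host and a locus (Mir10b counts under both Hoxd3 and Hoxd4). Counted by host, with its loci averaged, both were above the 25th percentile in 30 pairs. The sign was the same in 18 of the 30. The median difference was 0.15 for the loci and 0.011 for the hosts, and the loci had the more positive value in 24 pairs and the less positive one in 6. The most different pairs were Mir128-1 with R3hdm1 and Mir342 with Evl, given above. Col27a1, a collagen gene, and its intronic Mir455 lay closer to each other, with differences of 0.22 and 0.34. Xpo5, the exporter of miRNA hairpins and itself host to Mir693, differed by -0.090 and its locus by -0.12.

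**Figure D5:**
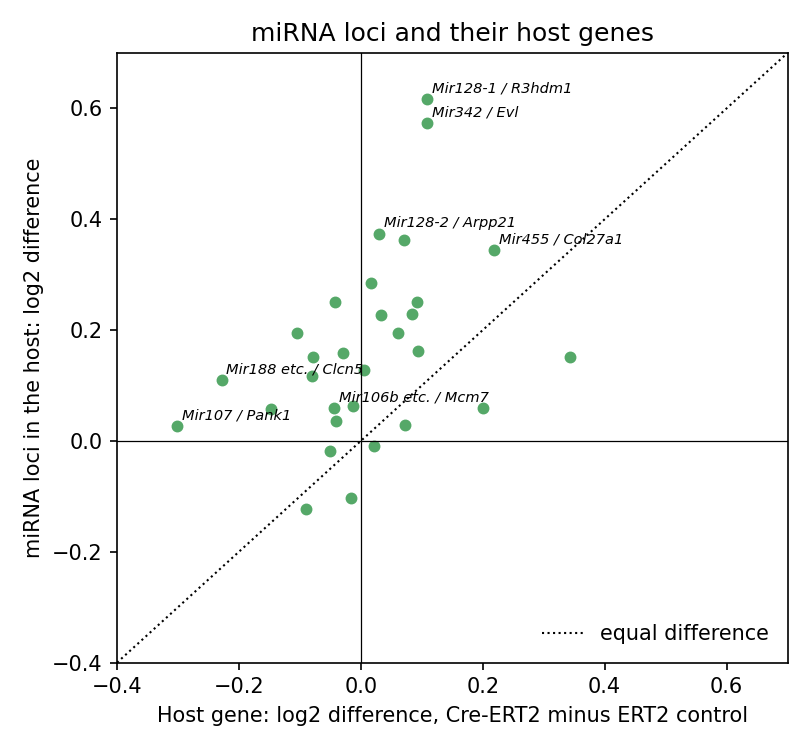
Each of the 30 points is a host gene, with its log2 difference (Cre-ERT2 minus ERT2 control) on the x axis and that of the miRNA loci inside it, averaged, on the y axis. Points above the dotted line of equal difference number 24, and Mir128-1 and Mir342 lie farthest from it.

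Of 32 measured genes of the proteins that make and use miRNAs, limma called 0 over all probe sets, against 0.0562% of that table. At an unadjusted p under 0.05 there were 10 (31.2%, against 19.8% of all probe sets), and the median difference was 0.012. Over single-symbol probe sets only Ago4, an Argonaute, was called (3.12%, against 1.72% of that table): its difference was -0.38 ± 0.075 (SE, limma adjusted p = 0.0451). Over the brighter genes, 3 were higher (Ago3 by 0.23, Tnrc6b by 0.30 and the helicase Mov10 by 0.20) and 3 lower (Ago4, Ran and Tsn), or 6 of 31 (19.4%, against 7.62% of that table). Ran, the nuclear transport GTPase, had a difference of -0.24 and Tsn, part of the nuclease that removes the passenger strand, of -0.25. The core enzymes did not pass in any of the 3 tables. Dicer1 had a difference of 0.073 ± 0.048, Drosha of -0.11 ± 0.054, its partner Dgcr8 of -0.095 ± 0.050 and Ago2 of 0.13 ± 0.068 (SE).

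Myc, whose protein activates transcription of Mir17hg, read 13.21, 13.24 and 13.18 in the controls and 12.98, 12.98 and 13.01 in the Cre-labelled arrays. The groups did not overlap, and the difference was -0.22 ± 0.044 (SE, limma adjusted p = 0.144 over all probe sets, 0.0554 over single-symbol probe sets and 0.0259 over the brighter genes). The other 5 measured genes of a list of MYC and E2F regulators of Mir17hg passed in none of the 3 tables. Mycn, the related N-MYC, lay on the other side, with 11.31, 11.28 and 11.26 in the controls against 11.45, 11.38 and 11.50 (0.16 ± 0.052, SE, limma adjusted p = 0.207 over all probe sets), without overlap. The MYC partner Max (-0.12 ± 0.054) and E2f3 (-0.14 ± 0.068, SE) were lower without overlap, and E2f1 (-0.031 ± 0.045) and E2f2 (-0.016 ± 0.048, SE) had overlapping groups.

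Of 22 textbook mRNA targets of miR-17-92 measured, 11 had positive and 11 negative differences, with a median of 0.0040. limma called 0 of them over all probe sets, and 7 had an unadjusted p under 0.05 (31.8%, against 19.8% of all probe sets). Of these 7, Mapk14 (-0.14) and Cyld (-0.15) were lower, and Itga5, Socs1, Tgfbr2, Bcl2l11 and Tnfaip3 higher, all without overlap. Over single-symbol probe sets limma called 2 (9.09%, against 1.72% of that table): Itga5, an integrin chain (0.34 ± 0.061, SE, adjusted p = 0.0397), and Socs1, given above. Tgfbr2, a TGF-beta receptor (0.22 ± 0.044, SE), was called besides these over the brighter genes (limma adjusted p = 0.026), which made 3 (13.6%, against 7.62%). Bcl2l11, the cell death inducer BIM and the best known of these targets in B cells, had a difference of 0.16 ± 0.043 (SE) and passed in none of the 3 tables (limma adjusted p = 0.185, 0.0929 and 0.0522 in the same order).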

How the data were processed

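The deposited values are log2 expression values, 1 per probe set and array. The submitters' processing notes name RMA and Partek 6.5, with no settings. No probe-level file was used, and the genome build is not stated in these sources. Values were used as deposited. They carry no read depth, and 3 arrays a group limit the precision. In the platform's annotation, 21789 probe sets had 1 gene symbol, 1621 several and 12146 none. All 300 miRNA loci matched the RefSeq table of GRCm38.p6 by gene identifier. For 25 of them a strand was lacking, and distance alone placed them in a unit. That exception was made after the unit rule was written and before any comparison was fitted.

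The difference of Cre-ERT2 from ERT2 control was tested two-sided, without covariates, by lmFit and eBayes of limma 3.58.1 (R 4.3.3). Benjamini-Hochberg adjustment ran over the whole table, and the threshold was 0.05. Units were fitted in the same table as the mean of their probe sets. The fit over all probe sets was the one chosen for the report. That over single-symbol probe sets had been listed beforehand as an alternative setting. That over 1 probe set a gene (its brightest) above the 25th percentile, and the single-symbol and filtered fits without each array, or with other normalization or a block, were added after the first fit had called 0 miRNA probe sets. Other alternatives were filters, normalizations, array weights, trended robust eBayes, a threshold of 0.01, each array left out, a gap of 50 kb and the brightest probe set of a unit. Members and lists were chosen with earlier results of these data known. Named genes were the miR-17 family, the B lineage loci, the 5 brightest units, the 5 largest differences each way among brighter units, their hosts, list members called, Inpp5d and Myc. Mir345, Bcl2l11, the MYC and E2F genes other than Myc, the core enzymes and the non-overlapping loci outside these were chosen after their values were seen.

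Deviations of same-numbered arrays from their group means correlated at 0.16, 0.024 and -0.20. With 3 arrays a group these values cannot tell whether the replicate numbers pair the samples, and the labels do not say. On simulated data for this comparison over 35556 probe sets, the fit recovered 38 of 100 probe sets changed by 0.5 and 80 of 100 changed by 1 (log2), and it made 4 false calls. Tables were made with Python 3.11.15, pandas 2.3.3, numpy 2.4.6 and scipy 1.17.1, and figures with matplotlib 3.10.9.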

Additional observations from a re-analysis of the deposited data

How the results depend on the processing

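limma's count of miRNA probe sets called, 0 over all probe sets, was 3 with the table limited to probe sets above the median of genes and 5 over single-symbol probe sets. Among alternatives chosen after seeing the data it was 10 over 1 probe set a gene above the 25th percentile and, over single-symbol probe sets, 6 with quantile normalization, 6 with cyclic loess, 15 with centred arrays and 1 with the replicate block. Units called, also 0, were 1, 2, 6, 2, 2, 10 and 1 in the same order. With an array left out, counts ranged from 0 to 34 probe sets and from 0 to 27 units over single-symbol probe sets, and from 0 to 36 and from 0 to 29 over the brighter genes. The highest were those without Cre-labelled array 3. The replicate block over all probe sets called 0, and the labels give same-numbered samples only that number in common. miRNA biogenesis genes called, 0, were 3 above the median of genes, 1 over single-symbol probe sets, 1 with trend and robust estimation and 6 over the brighter genes. miR-17-92 targets called were 3, 2 and 3, and miR-155 targets 1 each, above the median of genes, over single-symbol probe sets and over the brighter genes. The share of the table called was given above for the 3 main tables and for single-symbol probe sets without Cre-labelled array 3. For the other settings it is not given, so their counts cannot be set against the table and show nothing particular to miRNA loci. The miRNA median of 0.11 was 0.18 above the median of genes and 0.0033 with centred arrays. Of 490 combinations of 33 named loci and settings, 456 kept their direction and side of the threshold, 18 passed it newly and 16 had the other sign, all of loci near 0. With an array left out, Mir106a ranged from -0.18 to 0.048, Mir20b from -0.10 to 0.29, Mir92-2 from -0.066 to 0.047, Mir106b from -0.036 to 0.030, Mir25 from -0.065 to 0.027 and Mir142 from -0.0035 to 0.22. Mir92-2 was 0.049 with array weights, and Mir106b was -0.0060 with weights, -0.096 centred, -0.077 with loess and -0.092 with quantile normalization. The cause was not tested. Most miRNA probe sets were dim, which limits what their differences can show.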
